A study of Mus musculus with 6 samples.

Results

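The gasdermin family was examined in colon epithelium of germ-free mice with and without the histone deacetylase HDAC3. The 7 members, Gsdmc, Gsdmc2, Gsdmc3, Gsdmc4, Gsdmd, Gsdma and Gsdma2, were chosen by name with their differences between the genotypes already known. Every value of theirs in that comparison is therefore a description. Calls of members are listed further on for completeness and are no test of them. Of the 7, 6 have a probe set that names no other gene and are among the 19533 genes measured, while Gsdmc3 is measured only together with Gsdmc2 and Gsdmc4. No filter on low signals was applied.

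The animals were 6 C57BL/6 mice without a microbiota, 3 of them controls whose Hdac3 alleles carry loxP sites (HDAC3FF) and 3 in which Hdac3 was deleted within the intestinal epithelium (HDAC3ΔIEC). Live EpCAM-positive cells of the large intestine, EpCAM being a surface protein of epithelium, gave 1 Affymetrix array per mouse. Values are deposited log2 signals, on which a difference of 1 is a doubling. The labels name neither the promoter that drives the deletion nor the age or sex of the mice. Hdac3 read 6.96, 7.36 and 7.04 on the HDAC3FF arrays and 6.58, 6.22 and 6.00 on the HDAC3ΔIEC arrays, 55.3% of the control level on average (limma adjusted p = 0.0937). Probes of Hdac3 that lie outside the deleted exons would still read transcript, and where its probes lie is not known here.

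Gasdermins are pore-forming proteins. In an intact gasdermin the C-terminal domain holds the N-terminal domain inactive, and cleavage between them by a protease frees the N-terminal domain to insert into membranes. The pores release cytokines of the interleukin-1 family and can end in pyroptosis, a lytic form of cell death. Gsdmd is the substrate of inflammatory caspases, Gsdma genes are known from skin and upper digestive tract, and the Gsdmc genes are known from intestinal epithelium, where signals of type 2 immunity through STAT6 raise them.

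Gsdmc2, Gsdmc4 and the probe sets they share gave the largest differences of the family, all lower in HDAC3ΔIEC, and Gsdmc had a small difference of the same sign. Gsdmc2 (probe set 10428955) read 11.08, 11.16 and 10.28 on the HDAC3FF arrays and 9.68, 7.93 and 8.31 on the HDAC3ΔIEC arrays. The groups did not overlap, and the closest arrays, HDAC3FF replicate 3 and HDAC3ΔIEC replicate 1, lay 0.60 apart on the log2 scale. Group means were 10.84 ± 0.49 and 8.64 ± 0.92 (SD, n = 3 each), a log2 difference of -2.20 ± 0.45 (SE), so that the HDAC3ΔIEC signal averaged 21.7% of the control signal. Among all 19533 genes, 1 had a lower difference than Gsdmc2.

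Gsdmc4 (probe set 10428973) read 10.49, 10.41 and 9.11 in HDAC3FF and 8.89, 7.71 and 8.30 in HDAC3ΔIEC. Again the groups did not overlap, with 0.22 between the closest arrays. The means of 10.00 ± 0.77 and 8.30 ± 0.59 (SD, n = 3 each) differed by -1.71 ± 0.42 (SE), or 30.7% of the control signal, and 19 genes had a lower difference.

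Gsdmc3 was seen only on a probe set shared by Gsdmc2, Gsdmc3 and Gsdmc4 (10428960). That probe set read 10.94, 10.96 and 9.78 in HDAC3FF and 9.42, 8.24 and 8.13 in HDAC3ΔIEC, without overlap, for a log2 difference of -1.96 ± 0.43 (SE). Which of the 3 genes carries this signal cannot be told apart. A further probe set shared by Gsdmc2 and Gsdmc4 (10428981) read 8.54, 8.45 and 6.71 against 6.72, 5.83 and 5.31. Its difference of -1.94 ± 0.55 (SE) was of similar size, but here HDAC3FF replicate 3 lay just under HDAC3ΔIEC replicate 1, so the groups overlapped.

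Gsdmc itself, the first gene of the cluster (probe set 10428943), was dim throughout. It read 3.88, 4.03 and 3.90 in HDAC3FF and 3.72, 3.62 and 3.65 in HDAC3ΔIEC, a log2 difference of -0.28 ± 0.08 (SE) without overlap. Its mean signal was higher than that of only 16.6% of genes, where the arrays do not show whether a transcript is present, while the mean signals of Gsdmc2 and Gsdmc4 were above those of 95.3% and 92.5% of genes.

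**Figure D1:**
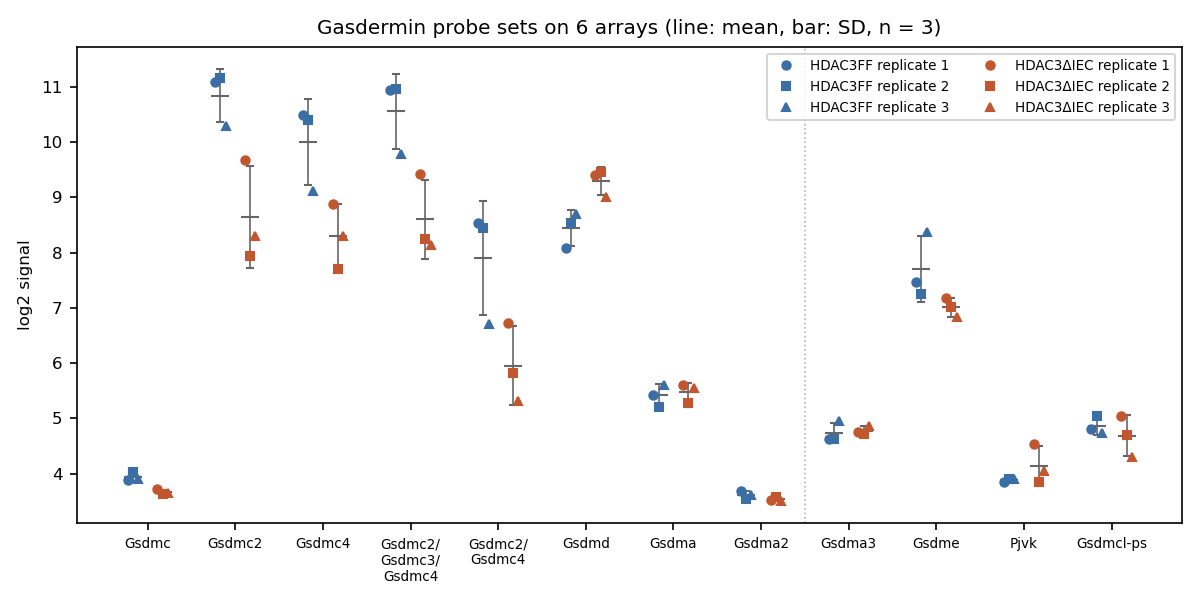
Log2 signals of 12 gasdermin probe sets on 6 arrays, members to the left of the dotted line and other family genes to the right, with HDAC3FF in blue, HDAC3ΔIEC in orange and a symbol for each replicate number; grey lines are group means with SD (n = 3). Gsdmc2 and Gsdmc4 are lower and Gsdmd is higher on all HDAC3ΔIEC arrays than on any HDAC3FF array, and HDAC3FF replicate 3 is the lowest control on each probe set that names Gsdmc2 or Gsdmc4.

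The 4 probe sets that name Gsdmc2, Gsdmc3 or Gsdmc4 also varied together among mice of 1 genotype. HDAC3FF replicate 3 minus the mean of the other controls was -1.79 to -0.84 on them, and HDAC3ΔIEC replicate 1 lay 0.88 to 1.56 above the mean of its group mates. These probe sets can share probe sequence among near-identical genes, so they are not independent measurements. Without HDAC3FF replicate 3 the difference was -2.48 for Gsdmc2 and -2.15 for Gsdmc4, and without HDAC3ΔIEC replicate 1 it was -2.72 and -2.00.

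HDAC3FF replicate 3 differed from its group mates in markers too. The summed signal of 8 stem and progenitor cell genes was 9.34 on that array against 9.81 and 10.06 on the other controls, on the log2 scale, and that of 9 enteroendocrine genes was 12.29 against 11.55 and 11.31. Over all genes, its median absolute gap to the mean of its group mates was 0.152, against 0.104 to 0.129 for the other 5 arrays. Other arrays stood apart in another list. The summed signal of 7 tuft cell genes was 9.42 on HDAC3ΔIEC replicate 1, against 8.72 and 8.74 on its group mates. On HDAC3FF replicate 1 that sum was 9.57, against 8.75 and 8.94 on the other controls. The part of these shifts in the Gsdmc values was not tested. Fewer cells that express a gene and less of its RNA per cell cannot be told apart in such bulk arrays.

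In the RefSeq table of assembly GRCm38.p6 the order on chromosome 15 is Gsdmc, Gsdmc2, Gsdmc3 and Gsdmc4, with the transcribed pseudogenes Gsdmcl1, Gsdmcl2 and Gsdmcl-ps between and after them. The pseudogene probe sets had overlapping groups. Gsdmcl-ps read 4.80, 5.04 and 4.74 against 5.05, 4.71 and 4.30 (log2 difference -0.17 ± 0.19, SE; limma adjusted p = 0.836), and a pair of probe sets that name all 3 pseudogenes gave -0.21 ± 0.22 and 0.01 ± 0.12. Their group means all lay below the median signal of the arrays.

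Of the 10 nearest measured genes around the cluster, 5 on each side, 9930014A18Rik, A1bg, Pvt1, Macroh2a3, Adcy8 and Oc90 were dim. Their HDAC3FF means of 3.74 to 4.61 lay below the array medians, so a fall could hardly be seen in them. None of the 10 genes around the cluster passed the test at a limma adjusted p under 0.05, and their log2 differences ran from -0.36 to 0.15. The one next to it, Cyrib, a regulator of the actin cytoskeleton, had -0.36 ± 0.12 (SE; limma adjusted p = 0.321), and Myc, the proliferation factor on the other side, had -0.22 ± 0.23 (0.836).

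**Figure D2:**
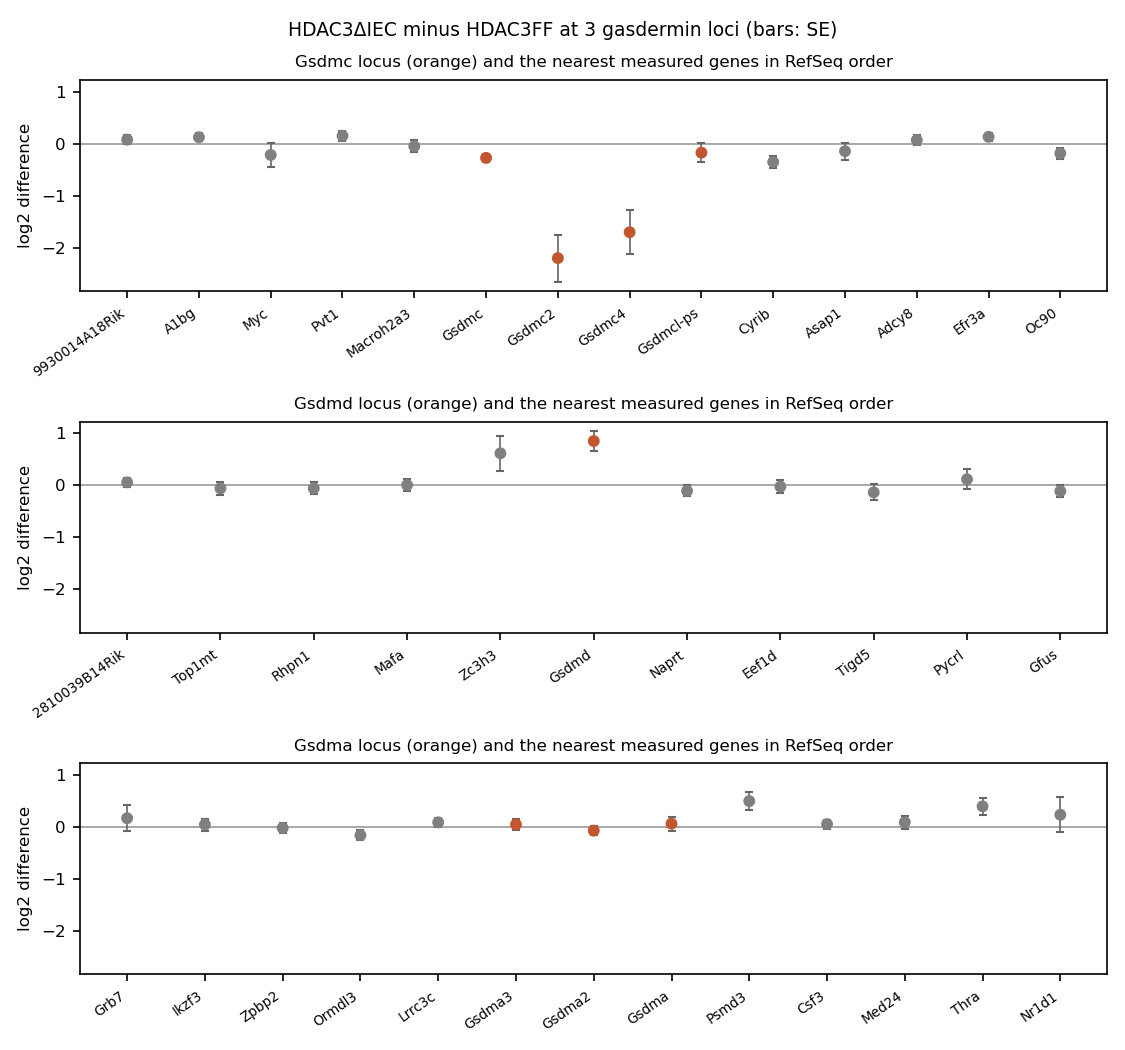
Log2 differences, HDAC3ΔIEC minus HDAC3FF, with SE (n = 3 each) for measured genes at 3 gasdermin loci in RefSeq order, gasdermin genes in orange and the 5 nearest genes on each side in grey; the horizontal axis gives gene order, not distance. Gsdmc2 at -2.20 and Gsdmc4 at -1.71 lie far below their neighbours, which run from -0.36 to 0.15. Among these neighbours 9930014A18Rik, A1bg, Pvt1, Macroh2a3, Adcy8 and Oc90 are dim, so a fall in them could hardly be seen.

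Of the 7 members, only Gsdmc3 has an entry in the RefSeq promoter table used here. Its window of 300 bases around the annotated start is shown for that reason, though Gsdmc3 has no reading apart from Gsdmc2 and Gsdmc4. The window is chr15:63878509-63878808 on the minus strand of GRCm38.p6, written 5′ to 3′, and the capitals mark a TATA-type motif, TATATAA.
Gsdmc3: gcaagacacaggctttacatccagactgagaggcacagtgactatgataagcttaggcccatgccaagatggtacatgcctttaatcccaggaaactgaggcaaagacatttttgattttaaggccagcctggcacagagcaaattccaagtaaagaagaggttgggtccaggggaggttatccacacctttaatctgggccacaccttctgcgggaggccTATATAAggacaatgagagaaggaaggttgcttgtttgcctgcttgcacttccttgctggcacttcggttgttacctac
The motif begins 29 bases before the annotated start, and 3.24% of 32851 promoter windows of this length hold it on either strand. None of the other motifs searched on both strands was found in it: TTCNNNNGAA (a STAT6 site, in 6.95% of windows), TTCNNNGAA (other STAT factors, 8.30%), AGGTCA (a nuclear receptor half-site, 16.3%), GAAANNGAAA (interferon response factors, 3.44%) and TATAAA (13.6%). TATATAA and TATAAA can share bases where they overlap. The window holds 2 CpG dinucleotides, against a median of 7 over all windows and 24 in the window of Gsdme. A match or its lack describes these letters alone.

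Gsdmd, which encodes the gasdermin cut by inflammatory caspases, was higher in HDAC3ΔIEC (probe set 10424731). It read 8.08, 8.54 and 8.70 in HDAC3FF and 9.41, 9.46 and 9.0 in HDAC3ΔIEC. All 3 HDAC3ΔIEC arrays lay above all 3 controls, with 0.29 between the closest. The means of 8.44 ± 0.32 and 9.29 ± 0.25 (SD, n = 3 each) differed by 0.85 ± 0.19 (SE), a 1.80-fold higher signal, and 138 genes had a higher difference. Unlike the Gsdmc probe sets, the array highest in HDAC3FF was replicate 3.

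The genes around Gsdmd on chromosome 15 did not pass the test, 0 of 10, with log2 differences from -0.14 to 0.61. The largest was that of the adjacent Zc3h3, an mRNA export factor, at 0.61 ± 0.33 (SE; limma adjusted p = 0.585), and Tigd5 had -0.14 ± 0.15 (0.842).

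The Gsdma genes on chromosome 11 had overlapping groups, at a signal near the median of all genes for Gsdma and a dim one for Gsdma2. Gsdma (probe set 10380976) read 5.43, 5.21 and 5.61 in HDAC3FF and 5.60, 5.28 and 5.54 in HDAC3ΔIEC, a log2 difference of 0.06 ± 0.14 (SE). Gsdma2 (probe set 10380965) read 3.69, 3.54 and 3.61 against 3.53, 3.58 and 3.51, a difference of -0.08 ± 0.08. Neither difference exceeded its error, and the mean signal of Gsdma2 was above that of only 10.6% of genes. Of the 10 nearest measured genes around this locus none passed, with Psmd3, a proteasome subunit, at 0.49 ± 0.17 (limma adjusted p = 0.306) and Thra, a thyroid hormone receptor, at 0.39 ± 0.16 (0.434).

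Of the 6 members measured alone, 4 had groups without overlap, 3 lower and 1 higher, where 16.2% of all genes did so, 7.7% lower and 8.45% higher. The 3 lower ones, Gsdmc, Gsdmc2 and Gsdmc4, lie in 1 cluster. Gsdmc was dim, and probe sets of Gsdmc2 and Gsdmc4 can share sequence, so they are not independent. None of the 6 was called at a limma adjusted p under 0.05, where 0.701% of all genes were (0.369% higher and 0.333% lower). Without HDAC3FF replicate 3, Gsdmc2 and Gsdmc4 were called, as were 2.2% of all genes, and without HDAC3ΔIEC replicate 1, Gsdmc2 was, as were 0.235% of all genes. Gsdmd was called when arrays were weighted by their quality (1.83% of all genes), and Gsdmc2 when only the 9766 genes above the median signal were tested (1.95% of those). No member was called with the replicate block, an intensity trend with a robust prior, quantile normalization or the mean of all probe sets. Nor was any called with probe sets of several genes also used, or with any other array left out. The median difference of the 6 was -0.18, against 0.01 over all genes, and 2 of the 6 differed by at least 1, as did 1.02% of all genes. Since this contrast entered the choice of members, the counts are given as they are, and no call of a member counts as a test.

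The other family genes, which were not among the members, were measured as well. Gsdme, a gasdermin cut by the apoptotic executioner caspase, read 7.48, 7.25 and 8.37 in HDAC3FF and 7.18, 7.01 and 6.84 in HDAC3ΔIEC. The groups did not overlap, but HDAC3FF replicate 3 stood 1.01 above the other controls, and the log2 difference of -0.69 ± 0.28 (SE; limma adjusted p = 0.414) was -0.35 without it. Gsdma3, next to Gsdma2, had 0.04 ± 0.11 (0.953), and Pjvk, the deafness gene pejvakin, 0.27 ± 0.17 (0.656), both below the median signal of all genes and with overlapping groups. None of these 3 passed.

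The genes that act before and after gasdermin cleavage were described from 8 lists of other genes, which hold together with these 3 family genes 121 measured genes. With all arrays 1 of the 121 passed, Mptx1, which fell, and none rose, where 0.701% of all genes passed. Without HDAC3FF replicate 3, 10 passed (Aqp8, Dgat2, Emp1, Il18, Jak2, Krt20, Mptx1, Nek7, Ripk3 and Slc37a2), against 2.2% of all genes. Without HDAC3ΔIEC replicate 1, 3 passed (Ang4, Mptx1 and Retnlb), against 0.235% of all genes, and without HDAC3ΔIEC replicate 2 none did, against 0.0717%. The median log2 difference of the 121 genes was 0.04.

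None of 15 measured inflammasome sensors and adaptors passed (median difference 0.00). Nek7, a kinase needed by the NLRP3 inflammasome, read 7.14, 7.45 and 6.78 against 6.43, 6.59 and 6.31, a log2 difference of -0.68 ± 0.17 (SE; limma adjusted p = 0.165), without overlap between the groups. The DNA sensor Aim2 had 0.16 ± 0.11 (0.681), Nlrp6, a sensor of colon epithelium, 0.22 ± 0.19 (0.765), and Pycard, the adaptor ASC, -0.19 ± 0.30 (0.906). The last of these had its lowest value, 10.10, on HDAC3FF replicate 3.

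None of 8 measured proteases that cleave gasdermins passed (median difference 0.02). Casp8, which can cut GSDMD and GSDMC, read 9.31, 8.99 and 9.52 against 9.59, 9.67 and 9.82 (0.42 ± 0.14, SE; limma adjusted p = 0.317). Casp1, the protease of canonical inflammasomes, read 10.25, 10.35 and 10.03 against 9.94, 9.93 and 10.00 (-0.25 ± 0.10; 0.425). In both the groups did not overlap. Casp4, which encodes mouse caspase-11, the receptor protease for bacterial lipopolysaccharide, had -0.06 ± 0.31 (0.979), with overlapping groups. The granule proteases Gzma, Gzmb, Elane and Ctsg were dim, and Gzmb had 0.21 ± 0.08 (0.412).

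Of 18 measured genes of pore regulation, membrane rupture and ESCRT repair none passed, and 14 had positive differences (median 0.15). Lamtor1, part of the Ragulator complex, which GSDMD pore formation needs, had 0.48 ± 0.11 (SE; limma adjusted p = 0.122), and Tsg101, an ESCRT subunit, 0.36 ± 0.11 (0.239). Both had groups without overlap.

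Of the interleukin-1 family list, 10 genes were measured and none passed (median difference -0.08). Il18, the epithelial cytokine released through gasdermin pores, read 8.61, 8.95 and 7.91 against 7.68, 7.44 and 7.0, a log2 difference of -1.12 ± 0.28 (SE; limma adjusted p = 0.160). Il1rn, the interleukin-1 receptor antagonist, read 7.39, 7.77 and 7.08 against 8.92, 8.88 and 8.13, a difference of 1.23 ± 0.25 (0.100). Neither gene had overlapping groups, and the lowest control of both was HDAC3FF replicate 3. Il1b and Il33 were dim, with -0.10 ± 0.10 and 0.01 ± 0.09.

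None of 17 measured cytokine receptors and transcription factors known upstream of gasdermin genes passed (median difference -0.04). Stat6 and Il4ra, which carry the interleukin-4 and interleukin-13 signal, had -0.04 ± 0.13 and 0.05 ± 0.10 (SE; limma adjusted p = 0.960 and 0.919), and Il13ra1, the other receptor chain, 0.25 ± 0.10 (0.399). Irf2, a transcription factor of Gsdmd, had 0.03 ± 0.15 (0.981). Jak2, a kinase bound to cytokine receptors, had 0.55 ± 0.15 (0.200), and its groups did not overlap.

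Of 15 measured epithelial genes listed for the interleukin-13 response 1 fell, none rose and 14 did not pass (median difference -0.05). Mptx1, a mucosal pentraxin, read 11.55, 10.86 and 11.30 against 9.24, 9.07 and 9.35, a log2 difference of -2.01 ± 0.18 (SE; limma adjusted p = 0.00923). Retnlb, the goblet cell protein RELMβ, had -1.15 ± 0.19 (0.0568), and Ang4, an angiogenin, -1.47 ± 0.34 (0.127). All 3 had groups without overlap. Clca1 and Muc2, abundant goblet cell products, had 0.13 ± 0.11 (0.751) and 0.21 ± 0.12 (0.609), with overlapping groups.

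Among 15 measured necroptosis and apoptosis effectors none passed, while 12 had positive differences (median 0.22). Ripk3, the kinase of necroptosis, read 7.17, 6.88 and 7.76 against 8.41, 8.42 and 7.96, a log2 difference of 1.0 ± 0.23 (SE; limma adjusted p = 0.131) without overlap. Tnfrsf1a, a receptor of tumour necrosis factor, had 0.48 ± 0.18 (0.378).

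**Figure D3:**
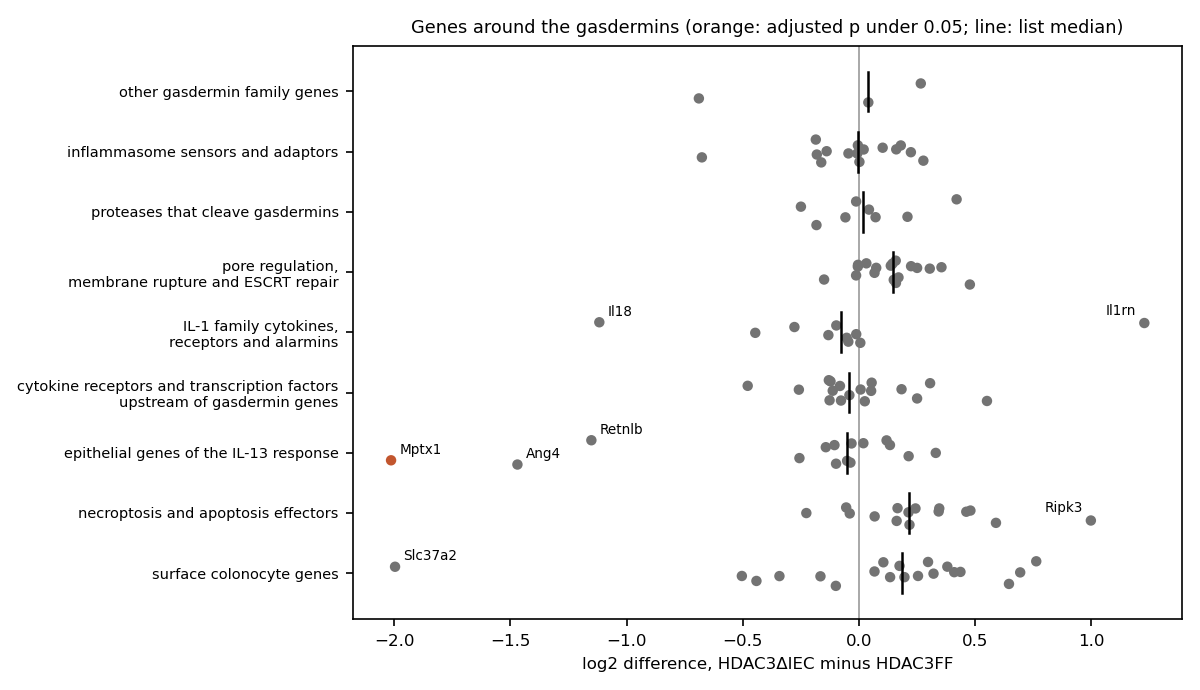
Log2 differences, HDAC3ΔIEC minus HDAC3FF, of 121 measured genes in 9 lists around the gasdermins, 1 point per gene and list, with the list median as a black line and genes past an adjusted p of 0.05 in orange. Mptx1 at -2.01 is the only orange point, and list medians lie between -0.08 and 0.22.

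Surface colonocyte genes, markers of the cells that line the upper crypt, were listed because Gsdmc genes are known there. None of 20 measured genes passed, and 14 had positive differences (median 0.19). Slc37a2, a sugar phosphate transporter, read 10.81, 11.04 and 9.92 against 9.39, 8.47 and 7.93, a log2 difference of -2.00 ± 0.41 (SE; limma adjusted p = 0.100). Like Gsdmc2 and Gsdmc4, it was lowest among the controls on HDAC3FF replicate 3 and highest among the HDAC3ΔIEC arrays on replicate 1. Slc26a3, the chloride-bicarbonate exchanger, had -0.44 ± 0.08 (0.0819). Krt20, a keratin of mature colonocytes, and the water channel Aqp8 had 0.41 ± 0.16 (0.415) and 0.69 ± 0.22 (0.266), with the opposite sign to the Gsdmc genes. The summed signal of the 20 genes overlapped between genotypes, at 16.12 to 16.28 in HDAC3FF and 16.19 to 16.37 in HDAC3ΔIEC. Gene by gene, 8 of the 20 were higher and 4 lower without overlap between the groups, against 8.45% and 7.7% of all genes.

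Markers of other cells were read on the same arrays. The summed signal of 8 general epithelial genes, led by Krt8 and Krt19, was 14.33 to 14.54 in HDAC3FF and 14.59 to 14.75 in HDAC3ΔIEC, without overlap, with 6 of 8 differences positive and none called. That of 9 enteroendocrine genes was 11.31 to 12.29 against 13.03 to 13.37, with all 9 differences positive and 2 called higher, Pyy and Insl5. That of 14 myeloid genes was 9.15 to 9.32 against 8.82 to 9.01, with 1 of 14, C1qa, called lower (-1.71 ± 0.19, SE; limma adjusted p = 0.0204). Over all genes, 0.369% were called higher and 0.333% lower. Differences in the myeloid list had both signs: 6 of the 14 had positive differences and the median was -0.05. Of these 14 genes, 3 were above the median signal of all genes. Cd14 and C1qa, the brightest of the list, had -0.40 and -1.71, while C1qb had 0.07, C1qc -0.11 and Cd68 0.51. The part of these shifts in the gasdermin values was not tested. Signals of a squamous epithelium list, cells in which Gsdma genes are known, were low: 3 of 15 genes were above the median signal of all genes, with Krt10 and Lor the brightest, and their sum was 8.64 to 8.75 against 8.64 to 8.70. Sums for goblet, tuft, T and NK, B and plasma cell, fibroblast and muscle, endothelial and stem cell genes overlapped between the genotypes. No gene of these lists was called. Above the median signal of all genes were 1 of 11 T and NK, 1 of 7 B and plasma cell, 1 of 8 endothelial and 4 of 11 fibroblast and muscle genes. For goblet, tuft and stem cell genes it was 8 of 8, 6 of 7 and 6 of 8. Overlap of sums from mostly dim genes does not show equal content of those cells. The brightest of the lists were Spink4, Tff3, Dclk1, Alox5ap, Ccl5, Cd7, Ighm, Derl3, Tagln, Vim, Lyve1, Cldn5, Myb and Mki67.

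The genes whose signals followed the Gsdmc genes most closely over the 6 arrays were sought among all genes brighter than the median. The reference was the mean of Gsdmc, Gsdmc2 and Gsdmc4, which read 8.49, 8.53 and 7.77 in HDAC3FF and 7.43, 6.42 and 6.75 in HDAC3ΔIEC. The 6 with the highest Pearson r over the 6 arrays were Ttr, the transporter transthyretin (0.993), Ogt, the O-GlcNAc transferase (0.993), St3gal5, the sialyltransferase of ganglioside GM3 synthesis (0.989), the membrane protein Tmem176a (0.988), the zinc finger gene Zfp324 (0.986) and Nrep (0.986). These values are a description: the arrays fall into 2 genotypes, are the source of every gene compared, and the genes were picked as the highest of many.

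In these 6 genes the arrays kept a similar order within each genotype, while the sizes of the differences varied. The genes were picked for a high r on the same arrays, so their likeness within each genotype follows in part from that choice. Ttr read 10.28, 10.55 and 9.65 against 8.96, 7.99 and 8.22, and St3gal5 read 8.35, 8.34 and 7.80 against 7.07, 6.35 and 6.57. In both, HDAC3FF replicate 3 was the lowest control and HDAC3ΔIEC replicate 1 the highest of its group, as for Gsdmc2 and Gsdmc4 but not Gsdmc, whose lowest control was replicate 1. When each array was set against the mean of its own genotype, r ranged from 0.943 for Nrep to 0.999 for St3gal5. The log2 differences of the 6 genes ran from -1.77 for Ttr to -0.11 for Zfp324. Over the 6 arrays as they stand, r to the Gsdmc mean was -0.831 for Gsdmd and 0.441 for Gsdme. With each array set against the mean of its own genotype, these became -0.287 and -0.474.

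**Figure D4:**
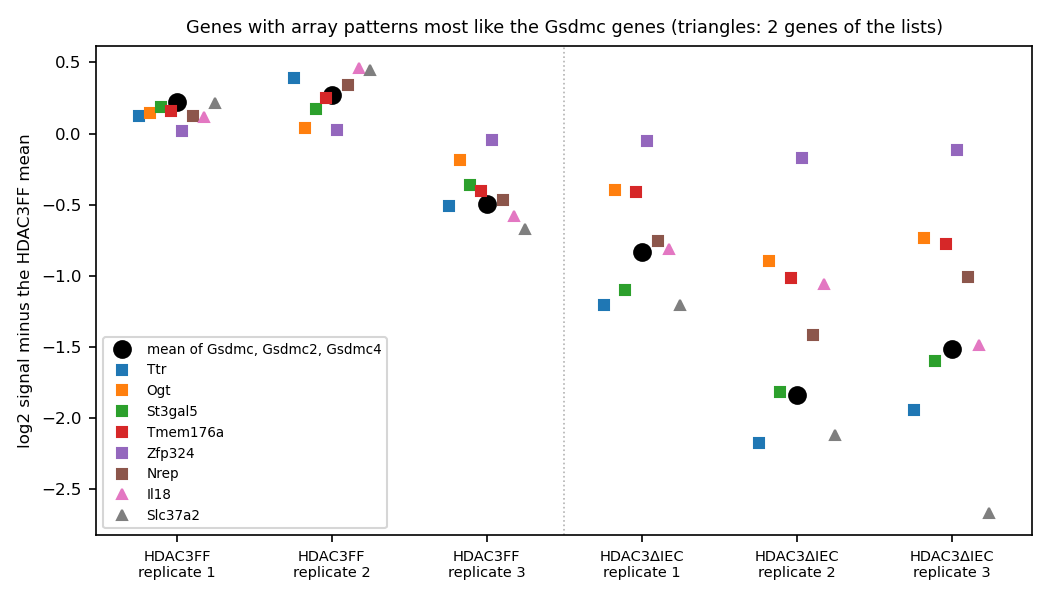
Log2 signal minus the HDAC3FF mean on each of 6 arrays, for the mean of Gsdmc, Gsdmc2 and Gsdmc4 (black), the 6 genes with the most similar pattern (squares) and Slc37a2 and Il18 from the lists (triangles). HDAC3FF replicate 3 lies below the other controls and HDAC3ΔIEC replicate 1 above its group mates for most of these genes, and Zfp324 follows the order of the arrays with a difference of only -0.11.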

How the data were processed

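Affymetrix arrays of 6 samples, 3 per genotype, were used. The authors deposited log2 signals, 1 per probe set and array, and the submitters' processing notes name Affymetrix Power Tools. Version, background correction and normalization were not given in the sources used here. No detection call accompanies the values, so a dim signal cannot be told from background. Per gene, the brightest of its probe sets naming that gene alone was used (21105 of 24939 probe sets, 19533 genes; symbols from the platform annotation, of which 21022 matched RefSeq of GRCm38.p6 by Entrez number).

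The genotypes were compared with limma 3.58.1 in R 4.3.3 (lmFit and eBayes, two-sided, no covariate, prior degrees of freedom 3.26), with Benjamini-Hochberg adjustment over all 19533 genes. Calls were made below an adjusted p of 0.05. SE are limma's moderated ones, and those of shared probe sets come from a fit over all probe sets. The fit was tested on simulated data. Promoter sequences are RefSeq's. Array medians lay between 5.30 and 5.35, and at most 0.133% of genes were equal on any 2 arrays, so no array is a copy of another. Each array was counted as its own sample, which that share alone does not show. The 3 arrays per group limit the precision. Each p-value sets a group difference against the spread between arrays of a group, which limma moderates with that of all genes.

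The members and lists were chosen with earlier results of these data known. Lists held 3 to 21 genes, and named genes were up to 3 called genes per list or else the 2 with the smallest p, the 2 brightest of each list of other cells, neighbours with the largest difference, and the 6 most similar patterns; any further gene was picked once its values were known. Genes without a listed probe set were not analysed here. Same-numbered arrays of the genotypes did not deviate together (r from -0.198 to -0.0242 over genes). Alternatives were the replicate block, array weights, an intensity trend with a robust prior, quantile normalization, only genes above the median signal, the mean of all probe sets, probe sets of several genes, and leaving out each array. Figures were made with matplotlib 3.10.9 in Python 3.11.15.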

Additional observations from a re-analysis of the deposited data

How the results depend on the processing

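Over the alternatives, differences ran from -2.72 to -1.85 for Gsdmc2, -2.15 to -1.41 for Gsdmc4, -0.30 to -0.23 for Gsdmc and 0.67 to 1.0 for Gsdmd. Most settings could not have moved them far. For the 6 members measured alone, the replicate block, the mean of all probe sets and the filter on signal return the main difference by construction. Leaving out 1 of 3 arrays cannot move a difference by more than the spread between replicates. Gsdma, whose groups overlap, changed sign without HDAC3FF replicate 2 (-0.05) and without HDAC3ΔIEC replicate 1 (-0.01). Gsdmc and Gsdma2 are below the median signal and have no value under that filter. With the replicate numbers as a block, 12 genes were called instead of 137, 11 of them among the 137; the numbers are no known pairing. Array weights gave 357 calls, and leaving out 1 array 13 to 430, with the most without HDAC3FF replicate 3. Of the 121 pathway genes, 1 was called with all arrays, 5 with array weights, 2 with an intensity trend and robust prior, 2 with quantile normalization, 3 among genes above the median signal and 0 to 10 with 1 array left out. Of all 19533 genes, 137 were called with all arrays (0.701%) and 357 with array weights (1.83%). The intensity trend with a robust prior gave 171 calls and quantile normalization 137. Among the 9766 genes above the median signal, 190 were called (1.95%). The causes were not tested. The dim signals of Gsdmc and Gsdma2 limit what their values can show.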
